A study of Salmo salar with 30 samples.

Results

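Family X35 was a full-sib family of Atlantic salmon with a wild mother from Little River, Newfoundland, and a farmed father of the St. John River strain. Its 10 juveniles, of 30 in the series, were chosen by the family given in their labels: 5 had been reared from the embryo on in a tank with gravel (enriched) and 5 in a bare one (unenriched). Families X11 (both parents wild) and X22 (wild mother, farmed father) gave the other 20 juveniles, 10 each, and were fertilised on an earlier day than X35. Each family had 1 tank per environment, so that tank and environment cannot be told apart, and the p-values measure only the spread between tank mates. All juveniles were taken at emergence, at the end of feeding on yolk, as judged on the tanks with gravel only. The study found enriched juveniles heavier than unenriched ones whatever their family, with length allowed for. It holds it possible that differences in size or developmental stage added to those in muscle and organ transcripts of the heads. This was not tested here.

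RNA came from whole heads, which held brain, eyes, skin, gills, heart and some muscle. Each array of the Agilent 4x44K salmonid microarray was hybridized with the RNA of 1 juvenile in Cy5 and with a pool of all juveniles in Cy3. The values below are log2 ratios of juvenile to pool for 21117 probes, and a log2 fold change is the enriched minus the unenriched mean, so that -1 is a halving of transcript abundance. In a whole head, fewer cells of a type and less RNA per cell cannot be told apart.

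Gravel gives salmon alevins support and cover in the weeks between hatching and emergence, when they live on yolk, and hatcheries often leave it out. In this period the brain adds neurons by cell division and differentiation, the heart and jaw muscles grow, and yolk is turned into tissue. Dividing cells carry transcripts of the spindle, of chromosome condensation and of DNA replication, which fall away when cells leave the cycle. Mitochondria carry their own small genome, which encodes core subunits of the respiratory chain, while most other subunits are encoded in the nucleus.

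On the 10 arrays of X35, 28.2 to 40.4% of spots were above the background limit in Cy5. The lowest percentage was that of enriched replicate 4, whose median Cy5 signal of 92 compared with 219 to 487 on the other 9 arrays. Of the values, 1.53% had been imputed. A Cy5 signal above the limit on at least 5 of the 10 arrays was found for 16067 of all 21117 probes. It was found for 21 of 32 neuron and synapse, 12 of 13 heart muscle, 22 of 22 skeletal muscle and 6 of 7 eye probes. The probes had already been filtered on their Cy3 signal, so these counts do not identify a tissue. The counts pool both environments, so a probe can pass through the arrays of 1 environment alone. The arrays lay on 3 slides. Slide 7 held enriched replicates 1 to 3 and unenriched replicate 5, slide 6 held unenriched replicates 1 to 4, and slide 8 held enriched replicates 4 and 5.

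The juveniles lay apart by replicate number more than by environment. The first principal component of all probes (27.7% of the variance) had replicates 1 and 2 of both environments between -108.7 and -73.8 and replicates 3 to 5 of both between 34.3 and 91.5. The labels do not say what this replicate class stands for. The class had been seen in earlier analyses of these arrays, so it is used as a block and its difference is given without a test. The median absolute difference between the classes was 0.26 on the log2 scale, against 0.16 between the environments. By gene list, the median of replicates 3 to 5 minus replicates 1 and 2 was 0.63 for heart muscle, 0.49 for the mitochondrial respiratory chain, 0.39 for ribosomal proteins and -0.60 for neuron and synapse probes.

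**Figure D1:**
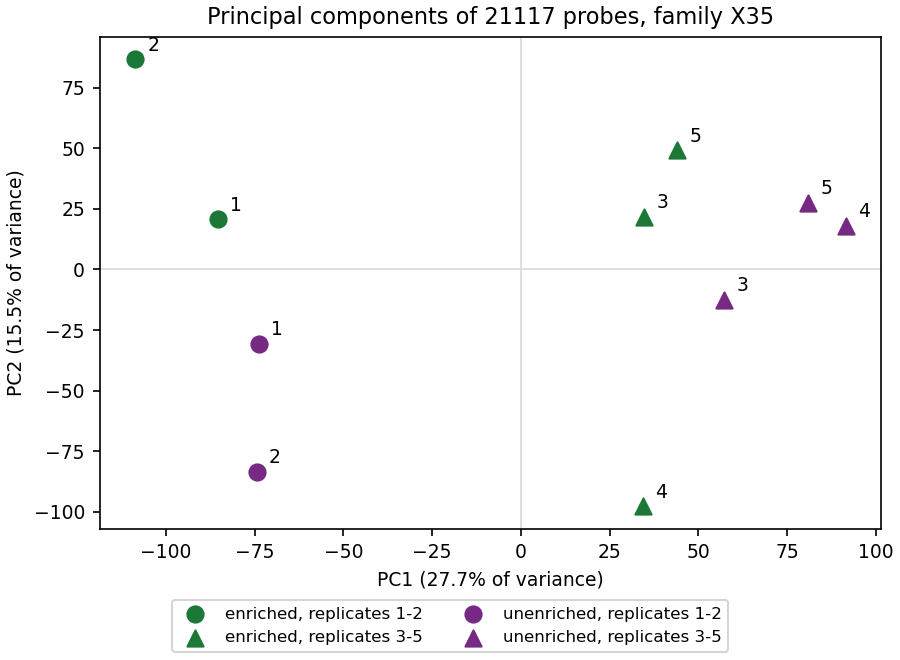
Scores of the 10 juveniles of family X35 on the first (x axis, 27.7% of variance) and second (y axis, 15.5%) principal component of 21117 probes, with enriched juveniles in green, unenriched in purple, replicates 1 and 2 as circles and 3 to 5 as triangles (numbers are replicate numbers). The first component separates the replicate classes, and enriched replicate 4 has the lowest score on the second, at -97.7.

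With the class as a block, 2 of 21117 probes (0.00947%) differed between the environments at a false discovery rate (FDR) of 5% in limma, both lower in the enriched juveniles. At 8% it was 3 probes (0.0142%), again all lower. The unadjusted p was under 0.05 for 1875 probes (8.88%), 906 of them higher (4.29%) and 969 lower (4.59%) in enriched juveniles. The log2 fold change was above 0 at 50.6% of the probes and below it at 49.4%. All 5 enriched juveniles had higher values than all 5 unenriched ones at 84 probes (0.398%) and lower values at 149 (0.706%). Without the block no probe was called, the lowest adjusted p was 0.100 and 1046 probes (4.95%) had an unadjusted p under 0.05. The calls also rested on most of the juveniles: leaving out 1 gave 0 to 3 probes, with none in 8 of 10 cases (without enriched replicate 1, 2, 3 or 5, or unenriched replicate 1, 2, 3 or 4). Without the dim enriched replicate 4 it was 3, including both.

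The lowest p belonged to NADH dehydrogenase subunit 5 (C235R104), a core subunit of respiratory complex I encoded in the mitochondrial genome. Its log2 ratios were -0.75, -0.54, -1.25, -1.14 and -1.07 in enriched replicates 1 to 5, and 0.69, 0.63, -0.04, 0.01 and -0.26 in unenriched replicates 1 to 5. The environments did not overlap, overall or within either class. The log2 fold change was -1.15 ± 0.12 (SE, limma adjusted p = 0.0309), with -1.30 in replicates 1 and 2 and -1.06 in replicates 3 to 5. The probe was among 13 that the study lists for this family, and it was chosen there on the same arrays. With slide as a further fixed block, which sets the comparison on slide 7, the log2 fold change was -1.02 and the adjusted p 0.369. Leaving out 1 juvenile gave adjusted p-values of 0.0226 to 0.198.

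Other transcripts of the mitochondrial genome did not share this size of difference. These probes were singled out after their values were seen. The 10 others named for such a transcript had log2 fold changes of -0.47 to 0.16 with a median of -0.08, and none had an unadjusted p under 0.05. Cytochrome c oxidase subunit 3 (C215R147) had the lowest value of them, at -0.47 ± 0.23 (SE). The 2 probes of NADH dehydrogenase subunit 4, C197R079 and C156R075, stood at 0.09 and 0.03, and cytochrome b (C214R165) at 0.07. The median over the 10 probes within a juvenile was 0.04, -0.26, 0.01, 0.44 and 0.22 in enriched replicates 1 to 5 and -0.01, -0.05, 0.42, 0.18 and 0.01 in unenriched ones, so that the environments overlapped.

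Over the whole respiratory chain list of 52 probes, 13 were lower and 0 higher in enriched juveniles at an unadjusted p under 0.05, and 42 lay below 0. The median log2 fold change was -0.24, against 0.00 over all probes. It was -0.27 in replicates 1 and 2 and -0.24 in replicates 3 to 5. Of the 47 members named from the X11 arrays 10 were lower and 0 higher, also with a median of -0.24. Among the nuclear subunits, NADH dehydrogenase iron-sulfur protein 5 (C096R105), of complex I, stood at -0.46 ± 0.13 (SE, limma adjusted p = 0.423). Its signal was under the Cy5 limit on 4 enriched and 2 unenriched arrays. With class and slide as fixed blocks the median of the list was -0.01 and that subunit stood at -0.24.

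The other probe called at 5%, C151R040, has no gene name in the tables used here. Juvenile RNA gave a signal below the background limit on the 5 enriched arrays and above it on the 5 unenriched ones, so that only a bound can be given: it was at least 1.47-fold higher in unenriched juveniles (adjusted p = 0.0397). Leaving out 1 juvenile gave adjusted p-values of 0.0226 to 0.202. The third, called at 8% (adjusted p = 0.0723), was magnesium-dependent phosphatase 1 (C264R097), lower in enriched juveniles. It was below the limit on all 10 arrays, and no fold is given.

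**Figure D2:**
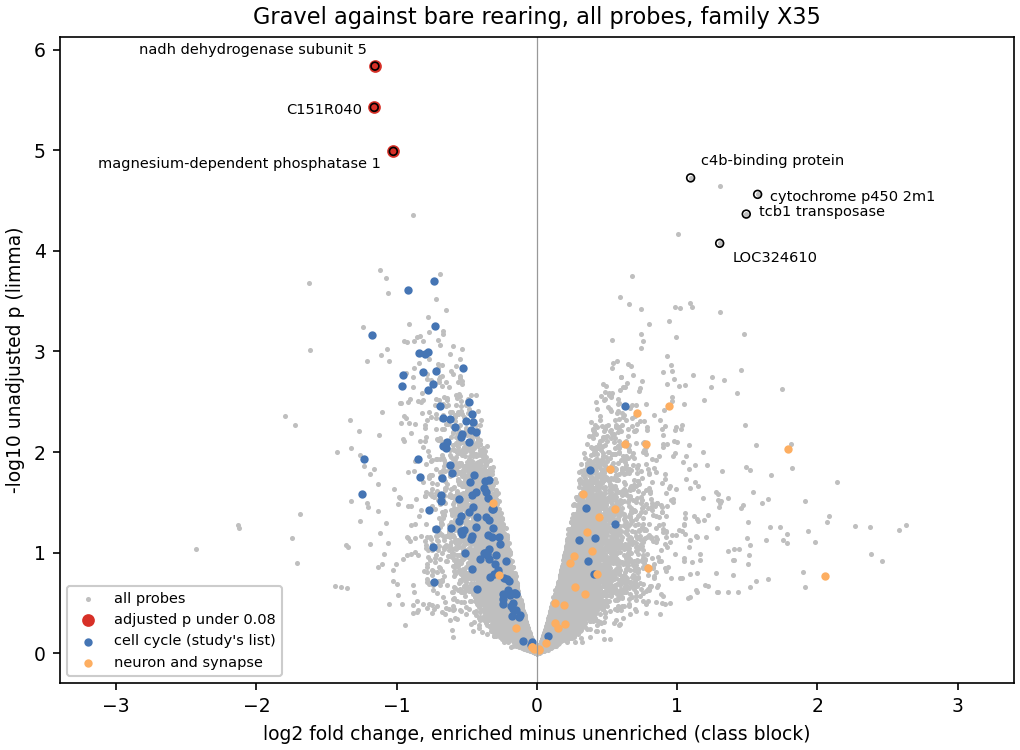
Log2 fold change of enriched over unenriched juveniles (x axis) against -log10 of the unadjusted limma p (y axis) for all 21117 probes of family X35, with the 3 probes called at 8% in red, the study's cell cycle probes in blue and the neuron and synapse probes in orange. All 3 called probes lie on the left, and all but 9 of the 122 cell cycle probes are below 0. C151R040, magnesium-dependent phosphatase 1, cytochrome P450 2M1 and the tcb1 transposase were under the Cy5 limit on every array of 1 or both environments, so their place on the x axis is not a fold.

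Gene names come from tables that the study made by testing these juveniles, so the lists below are not an independent sample of the genome. Of the 21117 probes 3077 have a name. Names from the comparison over all families, the cell cycle and heart lists and the X35 list used the arrays described here. The table of family X11 did not. Counts over the members of that table are therefore given for the 9 gene lists whose median lay farthest from 0. They are also given for myelin and meninges and for the study's cell cycle and heart lists. For comparison, 4.29% of all probes were higher and 4.59% lower at an unadjusted p under 0.05. Among the named probes it was 7.34% and 9.42%.

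Probes of mitosis and cytokinesis were lower in the enriched juveniles. Of 43 probes 24 were lower and 0 higher at an unadjusted p under 0.05, 41 lay below 0 and none was called. The median log2 fold change was -0.53, with -0.72 in replicates 1 and 2 and -0.33 in replicates 3 to 5. Of the 22 members named from the X11 arrays 10 were lower and 0 higher, and their median was -0.37. Under the Cy5 limit on all 10 arrays were 13 of the 43. Over the 23 above it on at least 5 arrays the median was -0.48, with 16 lower and 0 higher. Some of the 23 passed through the unenriched arrays alone, such as DEP domain-containing protein 1a (C153R058) and condensin-2 subunit g2 (C146R035). Their counts are therefore not a separate check of the direction. The median over the 43 probes was -0.67, -0.91, -0.43, -0.30 and -0.37 in enriched replicates 1 to 5, and -0.24, 0.20, 0.01, -0.01 and 0.08 in unenriched replicates 1 to 5. Every enriched juvenile lay below every unenriched one, and enriched replicates 1 and 2 were the lowest. Of the 43 probes 31 came from lists chosen on these arrays, so this separation is not independent evidence of a difference.

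Protein regulator of cytokinesis 1, which bundles microtubules between the separating chromosomes, was on 2 probes. C162R130 had log2 ratios of -0.73, -0.68, -0.40, -0.30 and -0.24 in enriched replicates 1 to 5, and 0.08, 0.41, 0.26, 0.44 and 0.12 in unenriched ones. Its log2 fold change was -0.73 ± 0.13 (SE, adjusted p = 0.278). C202R134 was also lower in enriched juveniles, but under the limit on all 10 arrays, with 1 value imputed. Sperm-associated antigen 5 (C059R123), a spindle protein, had log2 ratios of -1.005, -0.89, -0.69, -0.36 and -0.40 in enriched juveniles, against 0.60, 0.24, 0.25, 0.09 and 0.08 in unenriched juveniles. Here too the environments did not overlap, and the log2 fold change was -0.92 ± 0.17 (SE, adjusted p = 0.302), while another probe of that name stood at -0.48.

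Further members stood lower without passing the test, and the first 3 were picked after their values were seen. Cyclin B (C080R082), which drives entry into mitosis, had a log2 fold change of -0.84 ± 0.19 (SE), and the kinesin kif11 (C021R165), which pushes the spindle poles apart, one of -0.48 ± 0.13. Both had every enriched juvenile below every unenriched one. The spindle checkpoint protein mad2a (C148R165) stood at -1.23 ± 0.41. DEP domain-containing protein 1a (C153R058) was at least 2.04-fold higher in unenriched juveniles (adjusted p = 0.278), since its signal was under the limit on all 5 enriched arrays. The ZW10 interactor (C007R074), a kinetochore protein, was lower in enriched juveniles, with 5 enriched and 4 unenriched arrays under the limit.

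Of 23 probes of DNA replication and repair, all lay below 0, 13 were lower at an unadjusted p under 0.05 and none was called. The median was -0.47, with -0.65 in replicates 1 and 2 and -0.24 in replicates 3 to 5. The 14 members named from the X11 arrays had a median of -0.32, with 6 lower. Over the 16 above the limit on at least 5 arrays, both environments pooled, it was -0.44, with 9 lower. From the study's cell cycle list, dihydrofolate reductase (C206R024), which supplies folate for the synthesis of thymidylate, had log2 ratios of -1.18, -1.17, -0.70, -0.38 and -0.89 in enriched juveniles and of -0.35, -0.33, -0.22, -0.13 and 0.32 in unenriched juveniles. Its log2 fold change was -0.72 ± 0.15 (SE, adjusted p = 0.338), and -1.14 with class and slide as fixed blocks. The telomere-associated protein rif1 (C100R025) was lower in enriched juveniles, with all 10 arrays under the limit.

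Over the study's own cell cycle list of 122 probes, 60 were lower and 3 higher at an unadjusted p under 0.05. At 17 of them every enriched juvenile was below every unenriched one. Over all probes 4.59% were lower and 4.29% higher, and 0.706% had every enriched juvenile below. The cell cycle list was chosen on these arrays and is not independent evidence of its direction. Of its 69 members named from the X11 arrays 32 were lower and 3 higher, with a median of -0.37. The median difference was -0.63 in replicates 1 and 2 and -0.29 in replicates 3 to 5. Within either class no probe was called in limma, with unadjusted p-values under 0.05 at 8.46% and 6.66% of all probes. A test of the environment by class interaction called 0 of all 21117 probes (lowest adjusted p = 0.848, 1205 probes or 5.71% at an unadjusted p under 0.05), and in simulated data with the spread of these arrays it recovered only 2 of 100 probes with a difference of 1 log2 unit.

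**Figure D3:**
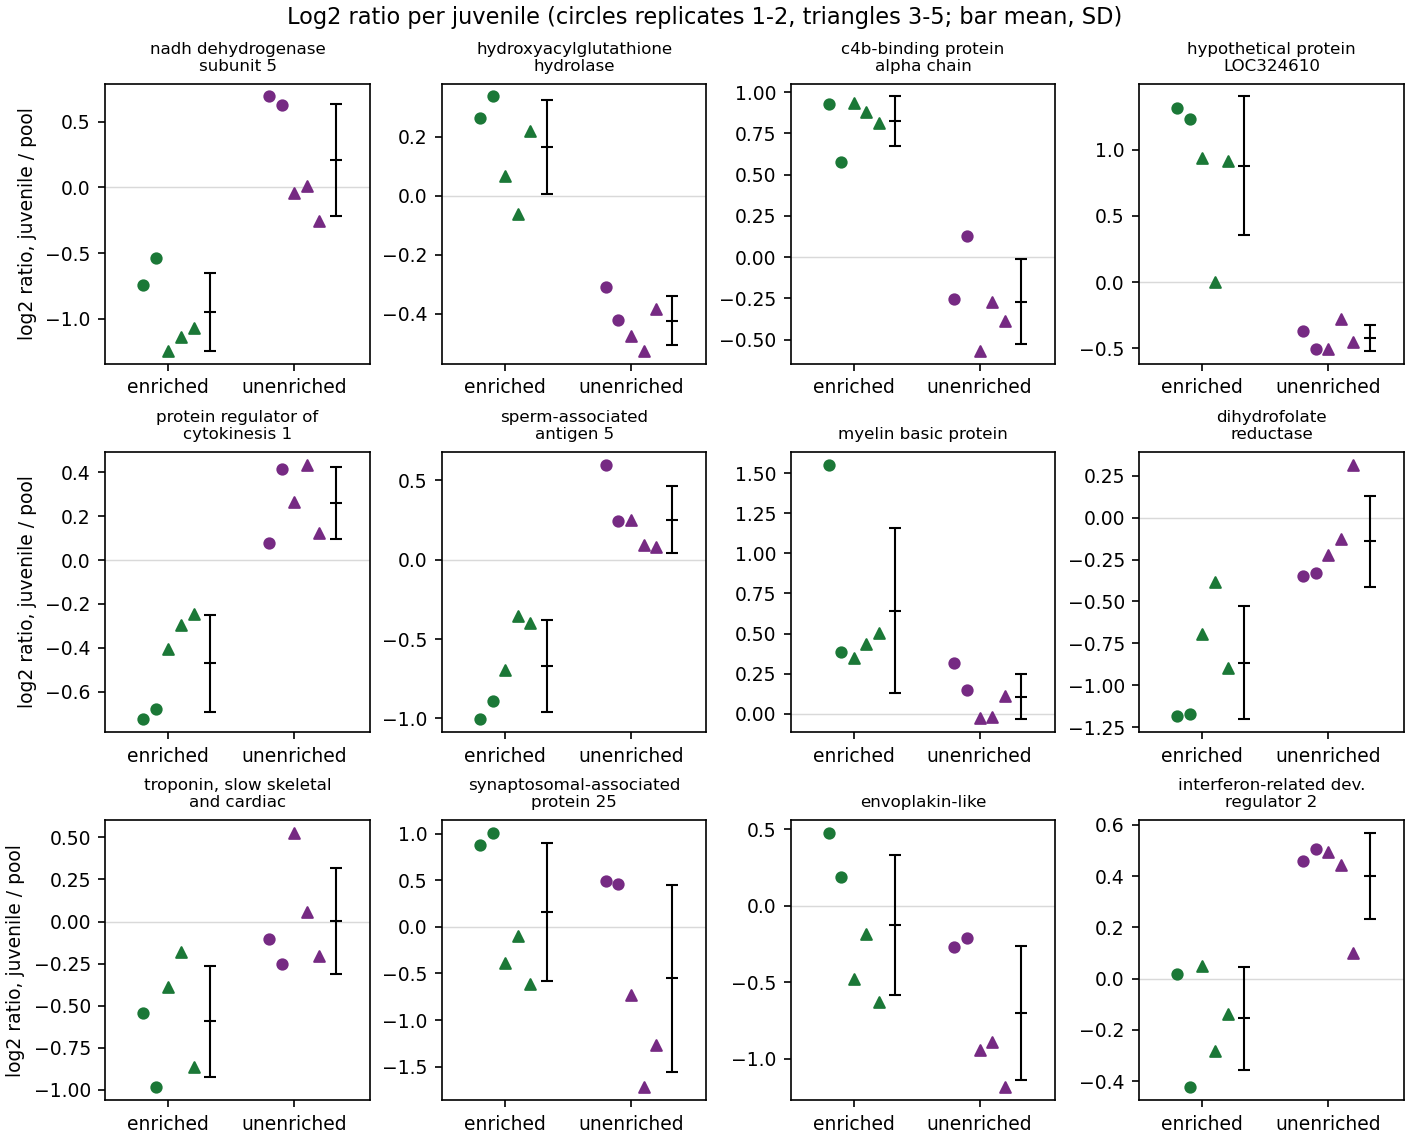
Log2 ratio of juvenile to pool (y axes, each with its own range) for 12 probes in the 5 enriched juveniles (green, left) and the 5 unenriched juveniles (purple, right) of family X35, with replicates 1 and 2 as circles, 3 to 5 as triangles and bars for mean and SD. The environments overlap for troponin, synaptosomal-associated protein 25 and envoplakin and for none of the other panels.

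Heart muscle probes stood lower in enriched juveniles with the class block, but not in every fit. All 13 lay below 0, 3 were lower at an unadjusted p under 0.05 and none was called. The median was -0.52, with -0.54 in replicates 1 and 2 and -0.56 in replicates 3 to 5, and -0.52 over the 11 members named from the X11 arrays, of which 2 were lower. The median within a juvenile was -0.445, -0.585, -0.08, -0.03 and -0.447 in enriched replicates 1 to 5 and 0.08, -0.12, 0.80, 0.74 and -0.17 in unenriched ones. Unenriched replicates 3 and 4 stood above the other juveniles, and the environments overlapped. With class and slide as fixed blocks the median turned to 0.50. That fit compares the environments only on slide 7, where unenriched replicate 5 was the 1 unenriched juvenile. The part of the slide in the difference was not tested.

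Troponin of slow skeletal and cardiac muscle, part of the calcium switch of contraction, was on 3 probes. C056R089 had log2 ratios of -0.54, -0.99, -0.39, -0.18 and -0.86 in enriched juveniles, against -0.10, -0.25, 0.53, 0.06 and -0.21 in unenriched juveniles, and a log2 fold change of -0.60 ± 0.18 (SE, adjusted p = 0.451). C074R053 stood at -0.52 ± 0.16 and the third probe at -0.57. With class and slide as fixed blocks C056R089 was at -0.14 and C074R053 at 0.13. Of the study's 63 heart development probes, chosen on these arrays, 20 were lower and 2 higher at an unadjusted p under 0.05, with a median of -0.40. Of the 37 named from the X11 arrays 10 were lower and 0 higher, and with class and slide as fixed blocks the median of the 63 turned to 0.12. Skeletal muscle probes had a median of -0.28 over 22, all named from the X11 arrays, with 2 lower and 0 higher. They included myosin heavy chain (C233R135) at -1.23 ± 0.42, whose 2 other probes stood at -0.29 and 0.14. C233R135 was under the Cy5 limit on 4 enriched arrays and 1 unenriched array, and it is also in the study's heart development list. Creatine kinase (C128R160), which buffers ATP, stood at -0.66 ± 0.27. With class and slide as fixed blocks the skeletal muscle median was 0.40, C233R135 stood at -0.07 and creatine kinase at 0.21.

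Neuron and synapse probes leaned the other way. Of 32 probes, all named from the X11 arrays, 9 were higher and 1 lower in enriched juveniles at an unadjusted p under 0.05, 26 lay above 0 and none was called. The median of the list was 0.27, with 0.22 in replicates 1 and 2 and 0.27 in replicates 3 to 5, and 0.78 in X11. Synaptosomal-associated protein 25 (C134R083), a SNARE protein of transmitter release, had log2 ratios of 0.88, 1.01, -0.39, -0.10 and -0.62 in enriched replicates 1 to 5 and of 0.50, 0.46, -0.74, -1.72 and -1.26 in unenriched ones. Within each class the enriched juveniles lay above the unenriched ones, and across classes they overlapped. Its log2 fold change was 0.71 ± 0.19 (SE, adjusted p = 0.423), and its 2 other probes, given after their values were seen, stood at 0.78 and 0.27. Glutamate receptor 2 (C066R112), a subunit of AMPA receptors, was higher in enriched juveniles, with 3 enriched and 5 unenriched arrays under the limit and 2 values imputed. The neurofilament light polypeptide (C219R080), a filament of mature axons, stood at -0.31 ± 0.13.

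Myelin and meninges probes lay above 0 at 8 of 12 and skin epithelium probes at 14 of 20, against 50.6% of all probes. Of the 12 myelin and meninges probes 2 were higher and 0 lower at an unadjusted p under 0.05, with a median of 0.15. The 10 named from the X11 arrays had a median of 0.11, with 6 above 0 and 4 below. Myelin basic protein (C124R145), which compacts the myelin sheath, had log2 ratios of 1.55, 0.38, 0.35, 0.43 and 0.50 in enriched juveniles and of 0.32, 0.15, -0.03, -0.02 and 0.11 in unenriched juveniles. The environments did not overlap, its log2 fold change was 0.54 ± 0.20 (SE), and enriched replicate 1 stood apart. Of 20 skin epithelium probes 6 were higher and 0 lower, with a median of 0.22 and, over the 18 named from the X11 arrays, also 0.22 with 5 higher and 0 lower. Envoplakin (C138R056), which links desmosomes to the keratin network, had log2 ratios of 0.48, 0.19, -0.48, -0.18 and -0.63 in enriched juveniles and of -0.27, -0.21, -0.94, -0.89 and -1.19 in unenriched juveniles. Its log2 fold change was 0.57 ± 0.13 (SE, adjusted p = 0.385), and 2 other probes of that name stood at 0.365 and 0.21. The transglutaminase E probe (C067R138), named for an enzyme that cross-links the cell envelope, was higher in enriched juveniles, with 5 unenriched and 3 enriched arrays under the limit.

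In the eye list of 7 probes 2 were higher, 1 was lower and the median was 0.17. Cone arrestin (C141R030), which ends the light response, stood at 0.42 ± 0.13 and retinaldehyde-binding protein 1 (C134R102), of the visual cycle, at 1.28 ± 0.49 (SE, limma adjusted p = 0.455 and 0.516). C134R102 was under the limit on 2 enriched and 3 unenriched arrays. Beta-crystallin B3 (C238R102), a lens protein, was lower in enriched juveniles, with a bound of 1.11-fold. Of its enriched values 3 of 5 were imputed, and 2 unenriched arrays were under the limit. The 5 red blood cell probes had a median of -0.11, and none had an unadjusted p under 0.05. In the yolk and liver list of 7 probes the median was -0.52, with 2 lower and 0 higher, and over the 6 named from the X11 arrays -0.53, with the same counts. Over the 3 of the 7 with a Cy5 signal above the limit on at least 5 arrays it was -0.14. Apolipoprotein B-100 (C011R035), a carrier of lipid from yolk and liver, stood at -0.52 ± 0.23. Apolipoprotein A-I was lower on C176R119, with all 10 arrays under the limit, and stood at 0.18 on its other probe. With class and slide as fixed blocks the median turned to 0.29 and apolipoprotein B-100 to 0.45.

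**Figure D4:**
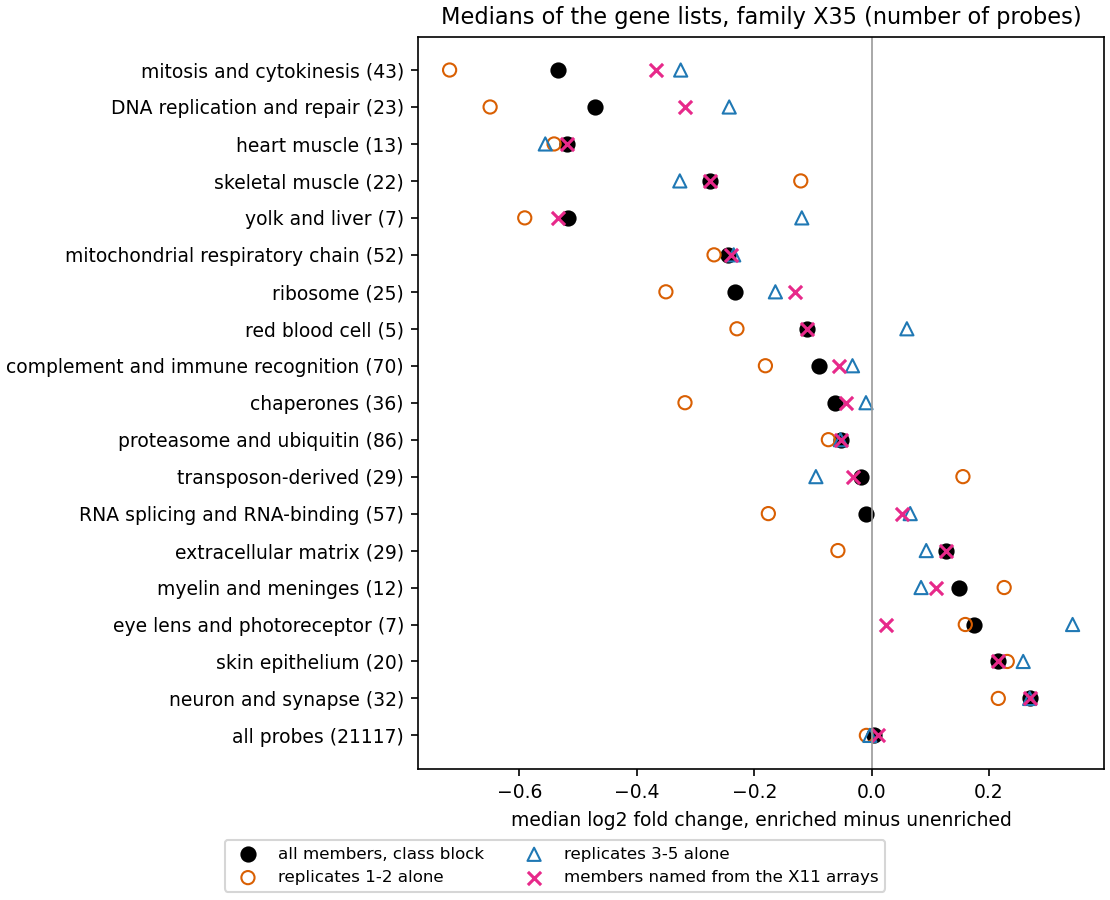
Median log2 fold change of enriched over unenriched juveniles (x axis) for 18 gene lists and all probes (y axis, number of probes in brackets), over all members with the class block (black), in replicates 1 and 2 (open circles), in replicates 3 to 5 (open triangles) and over the members named from the X11 arrays (crosses). Mitosis (-0.53), DNA replication (-0.47) and heart muscle (-0.52) lie lowest with yolk and liver, and neuron and synapse (0.27) highest.

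Of the lists of housekeeping functions, proteasome and ubiquitin and chaperones lay nearer to 0 than ribosomal proteins did. Ribosomal proteins had a median of -0.23 over 25 probes, with 3 lower and 0 higher at an unadjusted p under 0.05, and -0.13 over the 20 named from the X11 arrays, of which 2 were lower. 40S ribosomal protein S6 (C204R163), with 1 value imputed, stood at -0.51 ± 0.15 (-0.28 with class and slide as fixed blocks) and the L22-like protein (C116R096) at -0.46 ± 0.18. The proteasome and ubiquitin list had a median of -0.05 over 86 probes (1 higher, 5 lower), with proteasome subunit beta type-7 (C078R131), a protease of the core particle, at -0.44 ± 0.13. Its groups did not overlap. The chaperone list stood at -0.06 over 36 probes (1 higher, 6 lower). Heat shock protein 70 (C256R109) was at 0.58 ± 0.23, and at 0.98 with class and slide as fixed blocks. The 6 probes of prostaglandin E synthase 3, a partner of Hsp90, disagreed. Among them 3 stood lower in enriched juveniles, all of them under the limit on the 5 enriched arrays, with C130R051 at least 1.28-fold higher in unenriched juveniles and C237R046 also under it on 4 unenriched arrays, while the 3 above the limit on all 10 arrays (C008R077, C012R108 and C014R080, chosen after their values were seen) stood at 0.22, 0.16 and 0.12.

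RNA splicing and RNA-binding probes had a median of -0.01 over 57, with 3 higher and 4 lower. That was 5.26% and 7.02%, near the 4.29% and 4.59% of all probes. Heterogeneous nuclear ribonucleoprotein L (C018R137), a regulator of splicing, had log2 ratios of -0.43, -1.11, -0.68, -0.15 and -0.59 in enriched juveniles, against 0.82, 0.82, 0.88, 0.95 and -0.21 in unenriched juveniles. Unenriched replicate 5 lay among the enriched juveniles, and the log2 fold change was -1.24 ± 0.25 (SE, adjusted p = 0.338). It was -0.46 with class and slide as fixed blocks (adjusted p = 0.906). TAR DNA-binding protein 43 (C211R100), another RNA-binding protein, was higher in unenriched juveniles, with a bound of 1.04-fold (limma adjusted p = 0.116). It was under the limit on 5 enriched and 2 unenriched arrays. RNA binding protein with multiple splicing 2 (C085R070) stood at 0.74 ± 0.16 and a component of the spliceosomal U5 particle (C140R114) at 0.39 ± 0.17, the last at 0.21 with class and slide as fixed blocks.

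Among complement and immune recognition probes, 3 of 70 were higher and 4 lower, with a median of -0.09. These shares, 4.29% and 5.71%, were near the 4.29% and 4.59% of all probes. C4b-binding protein alpha chain (C211R110), which in mammals holds the complement cascade in check, had the lowest p of the probes higher in enriched juveniles. In its comparison over all families the study names this probe complement receptor type 1-like. Another probe named for C4b-binding protein stood at 1.50, without an unadjusted p under 0.05. The log2 ratios of C211R110 were 0.93, 0.57, 0.93, 0.88 and 0.81 in enriched replicates 1 to 5 and -0.25, 0.13, -0.57, -0.27 and -0.39 in unenriched ones. The environments did not overlap, and the log2 fold change of 1.10 ± 0.15 (SE) had an adjusted p of 0.0960, past the threshold of 8%. It passed 5% with array weights (adjusted p = 0.0241) and where only the 16067 probes above the Cy5 limit on at least 5 of the 10 arrays were tested, and its highest adjusted p over the alternatives was 0.571. Interferon-related developmental regulator 2 (C092R066) is in the list by its name alone. It had log2 ratios of 0.02, -0.42, 0.05, -0.28 and -0.14 in enriched juveniles and of 0.46, 0.50, 0.50, 0.44 and 0.10 in unenriched juveniles, with no overlap. The log2 fold change was -0.56 ± 0.14 (SE, adjusted p = 0.405). It was -0.16 with class and slide as fixed blocks. The MHC class II alpha chain (C023R031), which presents antigen, stood at -0.75 ± 0.25 (SE, limma adjusted p = 0.473). Its signal was under the limit on 4 enriched and 2 unenriched arrays. GTPase imap family member 7 (C155R133), of a family of lymphocyte GTPases, was higher in enriched juveniles, with a bound of 1.08-fold. It was under the limit on 5 unenriched and 3 enriched arrays, so the bound is not strict. Its other probe stood at -0.05.

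Other probes with the lowest p among those higher in enriched juveniles came from no list. The hypothetical protein LOC324610 (C237R040) had log2 ratios of 1.32, 1.23, 0.94, -0.003 and 0.92 in enriched juveniles and of -0.37, -0.51, -0.51, -0.28 and -0.46 in unenriched juveniles. The groups were apart, enriched replicate 4 was the lowest of its group, and the log2 fold change was 1.30 ± 0.21 (SE, adjusted p = 0.178). Without enriched replicate 4 the adjusted p was 0.0119. Hydroxyacylglutathione hydrolase (C023R052), of the glyoxalase pathway, stood at 0.59 ± 0.11 and zinc finger protein 512b (C025R107) at 1.02 ± 0.20, both with every enriched juvenile above every unenriched one. Integral membrane protein 2c (C078R052) stood at 0.68 ± 0.12. Cytochrome P450 2M1 (C204R103), a fatty acid hydroxylase known from rainbow trout, stood higher in enriched juveniles, with a bound of 1.24-fold (limma adjusted p = 0.0967). It was below the limit on the 5 unenriched arrays and on 2 enriched ones. The transcription factor zic 4 (C258R048) of the dorsal neural tube and uroplakin-1a (C166R069) of the urothelium were higher, likewise dim on all 5 unenriched arrays, and are given no fold.

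Transposon-derived probes split evenly, with 2 higher and 2 lower of 29 and a median of -0.02. A tcb1 transposase probe (C139R113) was higher in the enriched group, with a bound of 1.42-fold (limma adjusted p = 0.116). It was under the limit on 5 unenriched arrays and 1 enriched array. Another (C146R140), with 3 values imputed, stood at 0.56 ± 0.17, or 0.17 with class and slide as fixed blocks. Of the 11 tcb1 probes 6 others than C139R113 lay above 0 and 4 below. A tc1 transposase probe (C140R037) stood at -0.67 ± 0.22, with 4 enriched arrays under the limit. The extracellular matrix list had a median of 0.13 over 29 probes, with 1 higher and 1 lower. Metalloproteinase inhibitor 2 (C001R030), which restrains matrix-degrading proteases, stood at 0.71 ± 0.26, and its 2 other probes at 0.41 and 0.16. Collagen-like protein 2 (C023R130) was lower in enriched juveniles, with all 5 enriched arrays under the limit.

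Family X11, whose arrays are separate from those of X35, gave another set of probes to describe. The families shared slide 8, which held X11 enriched replicate 2, X35 enriched replicates 4 and 5 and no unenriched array. In X11 2819 probes were called at 5% (13.3%, of all probes 5.97% higher and 7.38% lower), of which 71.9% had the same direction in X35. The share of all probes with the same direction in both families was not counted, so the 71.9% has no background beside it. Of the 1261 that were higher in enriched X11 juveniles, 16.02% were higher and 0.952% lower in enriched X35 juveniles at an unadjusted p under 0.05, with a median log2 fold change of 0.21 in X35. Of the 1558 that were lower, 10.8% were lower and 1.09% higher, with a median of -0.10. With class and slide as fixed blocks the median of these 1558 turned to 0.02, and that of the 1261 was 0.23. The backgrounds over all probes were 4.29% higher and 4.59% lower. The same probes differed between the replicate classes of X35, with medians of -0.71 and 0.36 for replicates 3 to 5 minus 1 and 2.

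The environment effect in X35 differed from that in X11 at 44 probes (0.208%) at an FDR of 5%, with 3149 (14.9%) at an unadjusted p under 0.05. It lay above the X11 effect at 34 and below at 10. At 40 of the 44 the effect was smaller in size in X35, and at 35 the log2 fold change in X35 was within 0.5 of 0. Over all probes, effect sizes with the sign left aside had a median of 0.16 in X35 and 0.28 in X11. The 44 were also selected for a large difference between the families. Both counts can follow from this, and the share of all probes that meets either condition was not counted. They therefore do not set the 44 apart from other probes. The following were named after their values were seen. Arachidonate 5-lipoxygenase-activating protein (C103R023), needed for leukotriene synthesis, stood at -0.09 in X35 and -1.31 in X11 (limma adjusted p of the difference = 0.0464). Complement C4 (C186R121) stood at -0.08 in X35 and -1.46 in X11 (0.0464), and tyrosinase (C217R115), the first enzyme of melanin synthesis, at 0.44 and -1.18 (0.0488). The zinc transporter zip11 (C088R062) stood at 0.53 in X35 and -1.13 in X11 (0.0284). This count was not stable: it was 5 without the class term, 6 with slide as a random block, and 0 to 30 when 1 X35 juvenile was left out, with 0 without enriched replicate 2 and 0 without unenriched replicate 2. Against X22 0 probes differed in limma, with 1690 (8%) at an unadjusted p under 0.05. In simulated data, of 100 probes with a difference of 1 log2 unit, 34 were recovered against X11 and 45 against X22.

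**Figure D5:**
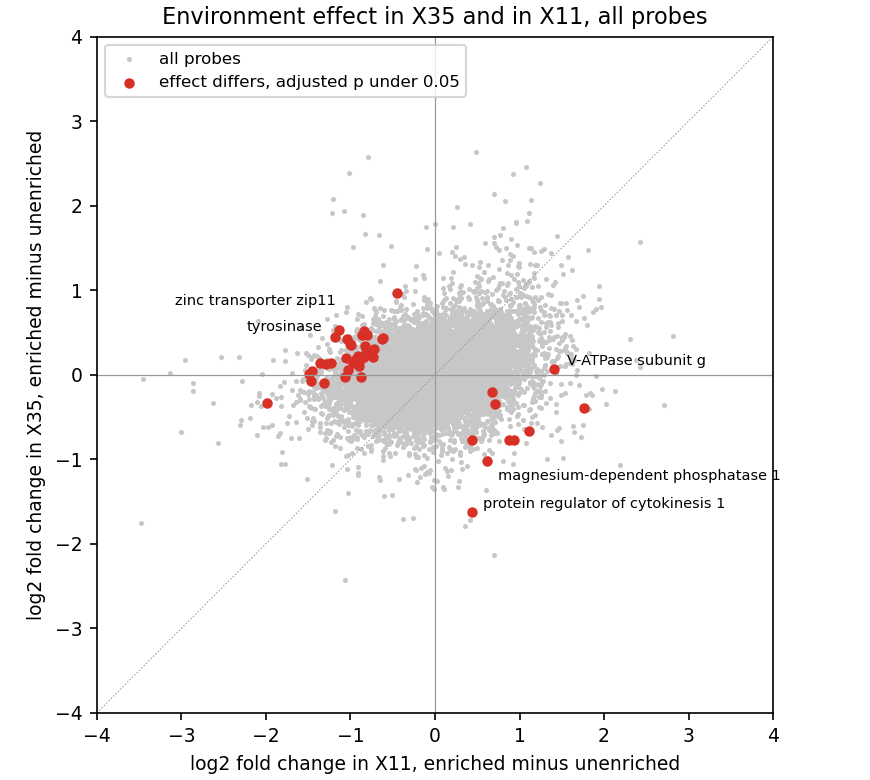
Log2 fold change of enriched over unenriched juveniles in X35 (y axis) against that in X11 (x axis) for all 21117 probes, with the 44 whose effect differed between the families in red and a dotted line of equal effects. Most red points lie near 0 in X35, and magnesium-dependent phosphatase 1 and the C202R134 probe of protein regulator of cytokinesis 1, which were under the Cy5 limit on all 10 X35 arrays, lie lowest.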

How the data were processed

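Heads of 30 juveniles were measured on arrays of 2 colours, and the 10 of family X35 are described. Intensity, as deposited by the authors, is the scanner median of each spot and of its local background, read at 5 µm, with poor spots flagged by hand. The deposited log2 ratios are background-subtracted Cy5 over Cy3 after loess within arrays. The authors removed flagged spots and spots whose Cy3 was under the mean + 2 SD of the background, left out probes with gaps in over 25% of arrays and imputed the other gaps. Here the table was matched to the scanner data: each of 30 columns matched its own array best (correlation at least 0.997, median absolute difference 0.0166), the loess span being 0.4 with 5 iterations. The methods give the dyes, so the direction was kept, although the lowest correlation between 2 columns was -0.387 (-0.053 within X35). Column medians in X35 were -0.07 to -0.02.

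The environments of X35 were tested by limma 3.58.1 under R 4.3.3 (lmFit, eBayes, two-sided, Benjamini-Hochberg over 21117 probes) with the replicate class (1 and 2, or 3 to 5) as a block. The study used SAM, which takes no block; fold changes and p-values that its tables hold were not used. The class split was noticed in earlier analyses. The members, gene lists and tests were chosen with earlier results of these data known. No p-value is given for a list. Names came from the study's supplementary tables, through 3750 of the probes. Named were every called probe, the 13 probes listed for X35, the named probes of lowest unadjusted p up to 10 each way, and up to 2 each way per list; those with an unadjusted p under 0.05 are given values. A probe was dim in an environment if Cy5 was under its array's limit, or imputed, on all 5 arrays. A bound set the arrays of the dim environment at the lowest Cy5 signal above the limit, or their own if higher. Signals were taken after loess and Aquantile on the 10 arrays. Arrays of the other environment kept their own signal, and where some of them were under the limit the bound is not strict. With no dye swap a bound is open to dye bias. The fit was tested on simulated data with 200 changed probes of 21117: it recovered 59 of 100 at 1 log2 unit and 93 of 100 at 2. The 200 changed probes are more than any of these tests called on the arrays. The Benjamini-Hochberg cutoff is then more lenient, so the shares recovered can overstate what the tests could find. The number of arrays limits the precision. Alternatives were the block, slide, imputation, recomputed ratios, normexp (offset 50), normalization between arrays, a Cy5 filter, array weights (statmod 1.5.0 was loaded for the slide fits) and leaving out each juvenile. Figures used Python 3.11.15 with matplotlib 3.10.9. Sequences of the probes were not used here. A probe that the rule names is not reported here.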

Additional observations from a re-analysis of the deposited data

Results flagged for a closer look

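In groups of 5 juveniles, a value was singled out where its gap to the nearest of the others, divided by the range of the group, passed Dixon's critical value of 0.71. Of 166 groups checked (58 named probes and 25 list medians in each environment) 8 passed, and chance gives about 1 in 20. Unenriched replicate 5 stood low for heterogeneous nuclear ribonucleoprotein L (C018R137), at -0.21 against 0.82 to 0.95 in the other 4, and for interferon-related developmental regulator 2 (C092R066), at 0.10 against 0.44 to 0.50. Unenriched replicate 1 stood low for TAR DNA-binding protein 43 (C211R100), at -0.54. Unenriched replicate 4 stood low for the U5 component (C140R114), at -1.03. Unenriched replicate 2 stood high for metalloproteinase inhibitor 2 (C001R030), at 0.52. Enriched replicate 1 stood high for myelin basic protein (C124R145), at 1.55 against 0.35 to 0.50. Unenriched replicate 3 had the highest median over the ribosome probes, 0.81, and enriched replicate 2 the lowest over the yolk and liver probes, -1.54.

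The environment effect of X35 minus that of X11 differed from 0 for the C202R134 probe of protein regulator of cytokinesis 1, at -2.06 on the log2 scale (limma adjusted p = 0.0284), and for magnesium-dependent phosphatase 1 (C264R097), at -1.64 (0.0433). Both were under the Cy5 limit on all 10 arrays of X35, so the values are not folds. The other probe of protein regulator of cytokinesis 1, C162R130, was above the limit on all 10 arrays and lower in both families, at -0.73 in X35 and -0.56 in X11.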

How the results depend on the processing

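The 2 probes called at 5% depended on the model. The count was 0 without the class block, 0 with the replicate block (numbers 1 to 5, lowest adjusted p = 0.407), 0 with class and slide as fixed blocks, 0 after quantile normalization (lowest adjusted p = 0.0508), 1 with ratios recomputed from the scanner signals and 6 with array weights (3 higher, 3 lower), and it was 0 to 3 when 1 juvenile was left out. The 3 probes called at 8% became 0 without the class block, 0 with the replicate block, 6 with class and slide as fixed blocks (all higher in enriched juveniles, none of the 3), 5 with slide as a random block and 9 with array weights, and 0 to 4 when 1 juvenile was left out. NADH dehydrogenase subunit 5 kept its direction in all 11 alternatives and in all 10 fits without 1 juvenile, with log2 fold changes of -1.21 to -1.02 and adjusted p-values of 0.00688 to 0.567. The replicate numbers were not taken to pair the juveniles, since the correlation of same-numbered deviations, 0.58, 0.45, 0.33, 0.05 and 0.39 for numbers 1 to 5, was near 0 for number 4. With the class removed the correlations were -0.21, -0.37, 0.04, -0.30 and -0.04, and 1 of 5 enriched juveniles correlated best with its own number.

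The environment by class interaction called 0 to 1 probes when 1 juvenile was left out (1 without enriched replicate 2) and 0 in the 4 other alternatives. The difference from X11, 44 probes, became 5 without the class term, 6 with slide as a random block and 0 to 30 when 1 juvenile was left out. That from X22 became 0 to 1 when 1 was left out. Of 58 named probes 3 changed direction, all with class and slide as fixed blocks: troponin C074R053 (0.13), creatine kinase C128R160 (0.21) and apolipoprotein B-100 C011R035 (0.45). In that fit 13 others became smaller and 4 larger by over 1.5 times. The same fit moved 9 list medians by more than the spread between juveniles, among them heart muscle (0.50), skeletal muscle (0.40), yolk and liver (0.29) and the study's heart development list (0.12), whereas mitosis (-0.60), DNA replication (-0.47) and neuron and synapse (0.23) kept their sides. By its construction that fit compares environments only on slide 7, where 3 enriched juveniles met 1 unenriched, and it cannot tell them further apart from slides 6 and 8. Otherwise the causes were not tested. No list median moved by that much in any other alternative. A signal under the limit, which 2061 probes had on all 10 arrays, limits what the arrays can show.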
